A study of Mus musculus with 6 samples.

Results

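PCAT14 and 9 further noncoding RNAs were followed in 22Rv1 prostate cancer cells that had become resistant to BL-B01D1. They were taken from the count table by gene name and are 10 of its 58735 genes. The set was proposed from the values of the parental-to-resistant contrast itself, so the levels and fold changes of these 10 RNAs are a description and carry no test. PCAT14, LINC01659, CES5AP1 and ZDHHC8P1 lie within 188.2 kb of each other on chromosome 22. The other RNAs are the prostate cancer transcripts PCA3, PCGEM1, PCAT1 and PCAT6 and the nuclear transcripts NEAT1 and MALAT1.

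22Rv1 is an established human prostate cancer line. BL-B01D1 is an antibody-drug conjugate that binds EGFR and HER3 and carries a topoisomerase I inhibitor. The parental group consisted of 3 libraries of 22Rv1 cells given vehicle, and the resistant group consisted of 3 libraries of the BL-B01D1_R subline, which was derived from the same line under rising drug concentrations. The labels give mouse as the organism, although every gene identifier named here is human. The subline is the product of 1 selection, and nothing in the labels says whether the libraries of a group came from separate cultures. p-values therefore measure the spread between these libraries, which may be technical.

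Long noncoding RNAs act without being translated, as scaffolds, decoys or guides for proteins, and many are transcribed in 1 tissue only. PCAT14 is a prostate-restricted transcript whose sequence derives in part from a HERV-K endogenous retrovirus. PCA3, used as a urine marker of prostate cancer, is transcribed within an intron of PRUNE2 on the opposite strand, and PCGEM1 is an androgen-responsive prostate transcript. NEAT1 is the architectural RNA of paraspeckles, whereas MALAT1 resides in nuclear speckles together with splicing factors.

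Counts on genes ranged from 13821639 to 17251491 per library, and 3 counts corresponded to between 0.174 and 0.216 CPM (counts per 1000000 after TMM scaling of library sizes). The markers of prostate epithelium were present in both groups, with a summed level of 11 markers of 3816 to 3921 CPM in parental and 4085 to 4155 CPM in resistant libraries. The sum hides unlike directions, with log2 fold changes from −0.48 to 0.91. In edgeR's quasi-likelihood test, 7 were higher and 3 lower in resistant cells at an FDR under 0.05. Of all tested genes, 17.1% and 18.4% were. Endothelial markers did not exceed 3 counts in any library, and leukocyte markers did not exceed 30. Summed fibroblast markers were 111 to 115 CPM in parental and 39.6 to 44.3 CPM in resistant libraries, of which most was LUM, called lower in resistant cells. Mitochondrial transcripts took 4.20% ± 0.0059 (SD, n = 3) of the counts in parental and 5.27% ± 0.14 (SD, n = 3) in resistant libraries. Their part in the results below was not tested.

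PCAT14 (ENSG00000280623) is a lincRNA encoded on the forward strand of chromosome 22, between 23536881 and 23547797 (hg38). Parental cells had 1.91, 2.80 and 2.95 CPM of PCAT14 and resistant cells 14.8, 12.0 and 13.5 CPM. The groups did not overlap, and the lowest resistant library lay well above the highest parental one. The means were 2.56 ± 0.56 CPM and 13.4 ± 1.44 CPM (SD, n = 3 each), a log2 fold change of 2.41 (SE 0.16) or 5.30-fold. These values rest on 33, 47 and 41 counts in parental cells and 246, 176 and 219 counts in resistant cells. In bulk RNA, more expressing cells and more RNA per cell cannot be told apart.

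CES5AP1 (ENSG00000215478), a transcribed pseudogene of the carboxylesterase gene CES5A, lies upstream of PCAT14 on the reverse strand, from 23359603 to 23387731. Its CPM was 1.80, 1.13 and 2.23 in parental cells and 11.7, 12.4 and 10.5 in resistant cells. The resistant libraries were again all higher, and the log2 fold change of 2.76 (SE 0.18), or 6.77-fold, was the largest of the 9 RNAs with enough counts to be tested. CES5A itself was nearly silent, with 1 count in a single resistant library and 0 in the others.

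ZDHHC8P1 (ENSG00000133519), a transcribed pseudogene of the palmitoyltransferase gene ZDHHC8, is the neighbor of CES5AP1 on the same strand, from 23390606 to 23402726. It was the most abundant RNA of the region, at 17.1, 17.3 and 16.8 CPM in parental cells and 59.8, 59.4 and 54.3 CPM in resistant cells. Its groups were far apart and each was tight, and the log2 fold change was 1.76 (SE 0.069), or 3.39-fold. ZDHHC8, the intact parent gene elsewhere on chromosome 22, was at 33.1 CPM in both groups, with a log2 fold change of 0.0042 (SE 0.071, FDR 0.972 in edgeR's quasi-likelihood test). Reads that fit the pseudogene and its parent equally well could have been assigned to either, and the share of such reads is unknown.

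LINC01659 (ENSG00000234928), an intergenic lincRNA of no established function, lies between these pseudogenes and PCAT14, from 23433564 to 23435071. Its CPM was 3.71, 2.86 and 2.74 in parental cells and 8.75, 9.65 and 8.69 in resistant cells. The resistant libraries all exceeded the parental ones, with a log2 fold change of 1.53 (SE 0.16), or 2.88-fold.

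The stretch of chromosome 22 from the start of CES5AP1 to the end of PCAT14 spans 188.2 kb and holds 8 genes of the table, these 4 RNAs and 4 others. Of the others, AP000344.2, AP000344.1 and LINC01658 passed the filter on low counts. AP000344.2 and AP000344.1 were called higher in resistant cells at the study's thresholds (FDR under 0.05 and absolute log2 fold change above 1). Of all 17142 genes tested, 2.53% were called higher, and 5.37% were called in either direction. AP000344.2, an unprocessed pseudogene inside ZDHHC8P1 on the other strand, rose from 1.84 ± 0.66 to 7.82 ± 1.23 CPM (SD, n = 3 each), with a log2 fold change of 2.11 (SE 0.204) and an FDR of 2.36e-11 in edgeR's test. Without strand, its reads and those of ZDHHC8P1 cannot be told apart. AP000344.1, a transcribed processed pseudogene, rose from 1.67 ± 0.27 to 4.13 ± 0.14 CPM (SD, n = 3 each), with a log2 fold change of 1.302 (SE 0.23) and an FDR of 1.13e-05. LINC01658, a lincRNA on the reverse strand and the nearest tested gene before PCAT14, had 4, 3 and 5 counts in parental and 28, 20 and 21 counts in resistant cells, a log2 fold change of 2.49 (SE 0.45). It passed the filter only through its resistant libraries, so a difference was built in and its value is a description. The remaining gene, LINC02557, had at most 4 counts in any library and was not tested. The interval was bounded by RNAs already known to differ, so its edges were not set independently of the values.

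**Figure D1:**
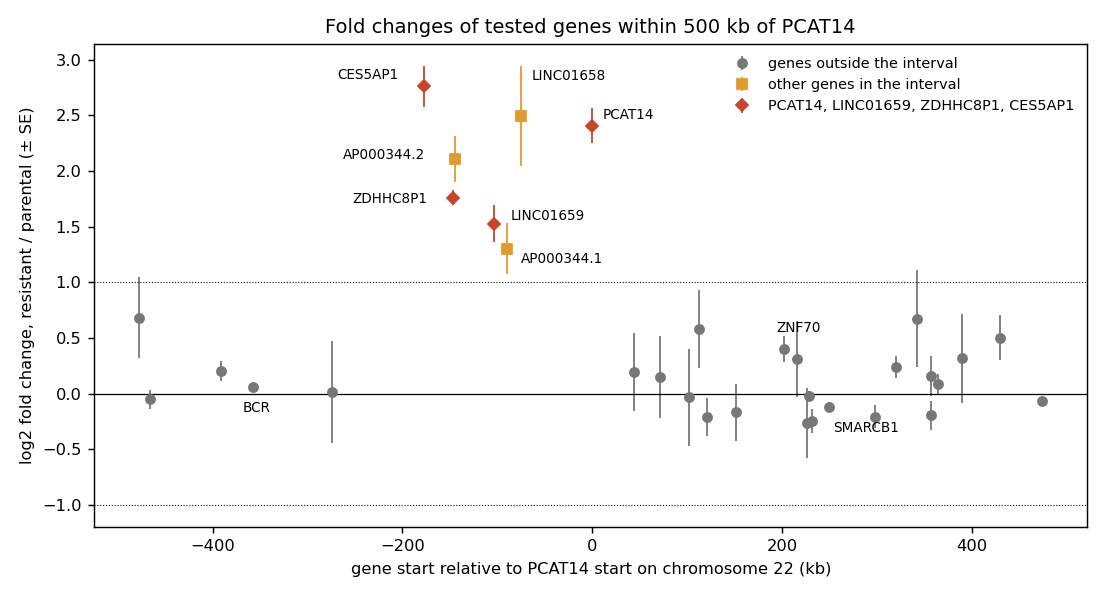
Log2 fold change of resistant over parental cells (vertical axis, ± SE) for each tested gene within 500 kb of PCAT14, by the distance of its start from that of PCAT14 (horizontal axis, kb), with dotted lines at 1 and −1. The 7 tested genes from CES5AP1 to PCAT14 all lie above 1, and 2.53% of all tested genes were called higher. Of the 7, PCAT14, LINC01659, ZDHHC8P1 and CES5AP1 were chosen on this contrast, and CES5AP1 and PCAT14 set the edges. AP000344.2 lies inside ZDHHC8P1, and LINC01658 passed the filter through its resistant libraries alone. The 26 genes on either side lie between −0.27 and 0.68.

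Genes on either side of this stretch were not called. Within 500 kb of PCAT14, 26 genes outside the stretch were tested, 0 of them were called in either direction by edgeR, limma or DESeq2, and 7 had an unadjusted p under 0.05. An FDR under 0.05 was reached by 3 of them at a smaller change, as by 35.5% of all tested genes. At least that share of all genes also had an unadjusted p under 0.05. Their log2 fold changes ranged from −0.27 to 0.68, with a median of 0.072, against 0.0038 for all tested genes. Those past an FDR of 0.05 were ZNF70 (log2 fold change 0.403), DDTL (0.502) and SMARCB1 (−0.12), the last a core subunit of the SWI/SNF chromatin remodeler. These genes were named after their values were seen. BCR, the protein-coding gene before CES5AP1 and known as the fusion partner of ABL1, was at 75.6 ± 1.84 CPM in parental and 78.7 ± 1.48 CPM in resistant cells (SD, n = 3 each; edgeR FDR 0.361), and its end lay 41.6 kb from CES5AP1. DRICH1, the nearest tested protein-coding gene after PCAT14, was at 0.958 ± 0.26 and 1.05 ± 0.25 CPM (SD, n = 3 each; edgeR FDR 0.796). Its log2 fold change was 0.15 (SE 0.37). Within 33.1 kb after PCAT14, no gene had enough counts to be tested. The next tested gene, AP000345.2, had a log2 fold change of 0.19 (SE 0.35). At this depth, a small or moderate change in AP000345.2 or DRICH1 could have gone undetected, so the edge on this side is not sharply resolved.

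Summed over the stretch, counts gave 27.8, 27.6 and 29.3 CPM in parental cells and 109, 108 and 99.0 CPM in the subline. The means were 28.2 ± 0.93 and 105 ± 5.57 CPM (SD, n = 3 each), a ratio of 3.73. This sum consists mostly of the described RNAs and so has no test. The sum over the flanking genes within 500 kb was 574 ± 7.19 CPM in parental and 567 ± 7.47 CPM in resistant libraries (SD, n = 3 each; two-sided p = 0.2 by an exact permutation test). With 3 libraries per group this test cannot go below 0.1, so nothing is read from it. Most of this sum came from SMARCB1 (143 CPM in parental cells), CABIN1 (107), CHCHD10 (101) and BCR (75.6). A change in weakly expressed flanking genes would hardly show in it. Within 1 Mb, a single further gene was called, SUSD2, a surface protein gene that was lower in resistant cells (log2 fold change −2.92, edgeR FDR 1.18e-19).

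The makeup of these counts differed between the groups, again as a description. ZDHHC8P1 made up 60.4% ± 2.77 (SD, n = 3) of the counts of the stretch in parental cells and 54.9% ± 0.23 (SD, n = 3) in resistant cells. CES5AP1 made up 6.06% ± 1.797 and then 10.95% ± 0.52, and PCAT14 9.03% ± 1.86 and then 12.8% ± 1.45 (SD, n = 3 each). The share of LINC01659 went from 11.0% ± 2.09 to 8.58% ± 0.51, and that of AP000344.1 from 5.91% ± 1.04 to 3.93% ± 0.33 (SD, n = 3 each). The shares of CES5AP1, PCAT14 and LINC01658 were higher in every resistant library than in any parental one, and those of ZDHHC8P1, LINC01659 and AP000344.1 were lower. For LINC01658, the highest parental share, 1.23%, nearly met the lowest resistant share, 1.26%. Its parental shares rest on 4, 3 and 5 counts. The shares of AP000344.2 overlapped between groups.

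**Figure D2:**
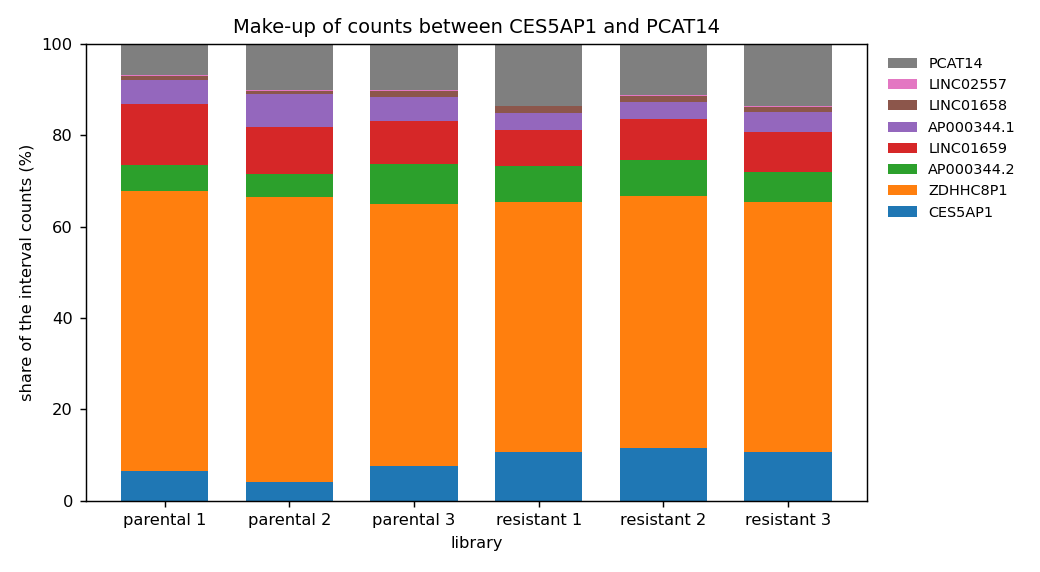
Share of the counts on genes between CES5AP1 and PCAT14 that fell on each gene (vertical axis, percent), for each of the 6 libraries (horizontal axis), with genes stacked in chromosomal order. ZDHHC8P1 holds the largest share in every library, and the CES5AP1 share is higher in all 3 resistant libraries.

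PCA3 (ENSG00000225937) is annotated on chromosome 9, from 76691980 to 76863307. Its CPM was 2.38, 3.04 and 1.51 in parental cells and 4.65, 5.51 and 4.68 in resistant cells. The groups did not overlap, although the parental libraries were widely spread, and the log2 fold change was 1.07 (SE 0.21), or 2.102-fold. This value lay close to the threshold of 1 and fell to 0.87 without parental replicate 3 and to 0.99 without resistant replicate 2.

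PRUNE2, the host gene of PCA3 on the opposite strand, rose from 374 to 528 CPM (log2 fold change 0.498, SE 0.0296, edgeR FDR 9.51e-18). PCA3 counts equaled 0.616%, 0.826% and 0.412% of PRUNE2 counts in parental cells and 0.919%, 1.04% and 0.856% in resistant cells. Each resistant percentage was above each parental one. The strand setting of the counting is not given in the sources used here, and without strand, unspliced PRUNE2 reads and PCA3 reads cannot be told apart. GCNT1, the glycosyltransferase gene before PCA3, also rose (log2 fold change 0.74, edgeR FDR 2.27e-13), whereas FOXB2, the next tested gene after it, had a log2 fold change of 0.41 (FDR 0.0753).

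PCAT6 (ENSG00000228288), a lncRNA named for prostate cancer and known from several other tumors, lies on chromosome 1, from 202810954 to 202812156, and its counts were low throughout, with 3, 3 and 7 for parental and 16, 11 and 17 for resistant cells. In CPM these were 0.17, 0.18 and 0.504 against 0.97, 0.75 and 1.05. The groups did not overlap, and the log2 fold change was 1.73 (SE 0.503). PCAT6 passed the filter on low counts through its resistant libraries alone, so a difference was built in, and its value moved to 2.34 without parental replicate 3. KDM5B, a histone demethylase gene that lies 1.48 kb from PCAT6 on the opposite strand, rose from 45.5 to 57.9 CPM (log2 fold change 0.35, edgeR FDR 6.97e-06). AC098934.1, the next tested gene on the other side, had −0.30 (FDR 0.402).

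PCAT1 (ENSG00000253438), annotated on chromosome 8 in the gene desert before MYC and known to lower BRCA2 levels, was the only described RNA with a lower mean in resistant cells. Its CPM was 1.57, 2.44 and 1.73 in parental cells and 1.57, 1.09 and 1.48 in resistant cells. The groups overlapped, and the log2 fold change of −0.47 (SE 0.299) ranged from −0.60 to −0.25 with each library left out in turn. FAM84B, a protein-coding gene on the opposite strand that overlaps the start of its annotated span, was at 53.7 and 48.7 CPM (edgeR FDR 0.0610), and MYC, the next tested gene, was at 270.0 and 260.3 CPM (FDR 0.212). On the other side, 1118 kb away, TRIB1, a pseudokinase gene, rose from 63.9 to 78.6 CPM (log2 fold change 0.300, edgeR FDR 2.50e-06).

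PCGEM1 (ENSG00000227418), on chromosome 2 from 192749845 to 192776899, was at the limit of detection. No parental library had a count of it (0, 0 and 0), and resistant cells had 2, 0 and 2. All values were at or below the floor of 3 counts, so PCGEM1 was not tested and no fold is given. Its nearest tested gene, TMEFF2, which encodes a transmembrane protein of the prostate, lies 554 kb away and rose from 38.9 to 365 CPM (log2 fold change 3.22, edgeR FDR 1.99e-41). SLC39A10, a zinc transporter gene and the next tested one on the other side, also rose (log2 fold change 0.13, FDR 0.0066).

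**Figure D3:**
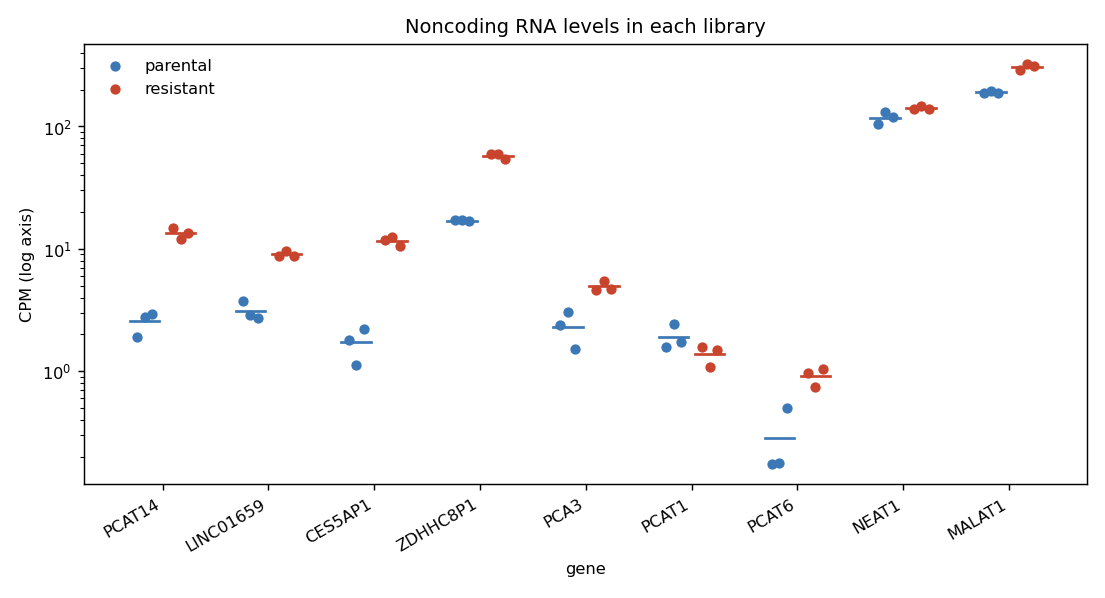
CPM (vertical axis, log scale) of 9 of the 10 noncoding RNAs (horizontal axis) in each of 3 parental (blue) and 3 resistant (red) libraries, with a line at each group mean, and PCGEM1 left out because of its zeros. The groups overlap for PCAT1 and are apart for the other 8, in a set chosen on this contrast. Of all tested genes, 22.1% had every resistant library above every parental one. PCAT6 passed the filter through its resistant libraries alone.

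NEAT1 (ENSG00000245532) and MALAT1 (ENSG00000251562) lie 52.1 kb apart on the forward strand of chromosome 11, from 65422774 to 65445540 and from 65497688 to 65506516. MALAT1 was at 188, 196 and 187 CPM in parental cells and 289, 324 and 312 CPM in resistant cells. All resistant libraries were higher by a margin much wider than the range within either group, and the log2 fold change was 0.696 (SE 0.035), or 1.62-fold. NEAT1 was at 105, 131 and 119 CPM in parental cells and 138, 147 and 138 CPM in resistant cells. Its groups did not overlap but came close, with a log2 fold change of 0.26 (SE 0.047), or 1.19-fold, and a range of 0.17 to 0.34 with each library left out.

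The balance of the pair differed between groups. The ratio of MALAT1 to NEAT1 counts was 1.79, 1.5005 and 1.58 in parental cells and 2.09, 2.21 and 2.26 in resistant cells, higher in every resistant library. Libraries were made from oligo-dT–selected RNA. MALAT1 ends in a triple helix instead of a regular poly(A) tail and only the short NEAT1 isoform is polyadenylated, so these counts hold the part of each RNA that oligo-dT retained. FRMD8, before NEAT1, and AP000769.1, between the pair, were not called, with log2 fold changes of 0.016 (edgeR FDR 0.867) and −0.13 (FDR 0.605).

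Among the 9 tested RNAs, 6 were past the thresholds for a higher call, where 2.53% of all tested genes were, and 0 for a lower call, where 2.84% were. The resistant libraries all exceeded the parental ones in 8 of the 9, a pattern shown by 22.1% of all tested genes, whereas 22.8% showed the opposite pattern and 0 of the 9 did. Since the set was chosen on this contrast, nothing is read from these counts. The 6 were PCAT14, LINC01659, CES5AP1, ZDHHC8P1, PCA3 and PCAT6. PCAT6 passed the filter through its resistant libraries alone, so its difference was built in, both among the 6 and among the 8. The 10 RNAs together took 0.034% ± 0.0019 (SD, n = 3) of all counts in parental and 0.054% ± 0.0021 (SD, n = 3) in resistant libraries.

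Levels were set side by side as FPKM, which divides CPM by the annotated gene length in kilobases. For NEAT1 that length is 22767 bases, its whole annotated span, whereas only its short isoform is polyadenylated. Its FPKM would be higher at the length of the short isoform, and its place in the order could change. Places of the other RNAs also rest on their annotated lengths. In parental cells, MALAT1 stood highest at 21.6 ± 0.55 FPKM (SD, n = 3), followed by ZDHHC8P1 (5.21 ± 0.074), NEAT1 (5.19 ± 0.56), LINC01659 (2.87 ± 0.49), CES5AP1 (1.103 ± 0.36) and PCAT14 (0.52 ± 0.11). ZDHHC8P1 and NEAT1 overlapped, and so did the pairs PCAT14 and PCAT6 (0.32 ± 0.21), PCAT6 and PCA3 (0.16 ± 0.054), and PCA3 and PCAT1 (0.11 ± 0.028). In resistant cells, MALAT1 was at 34.9 ± 2.01 FPKM and ZDHHC8P1 at 17.7 ± 0.94 (SD, n = 3), with no overlap. At the annotated lengths, LINC01659 (8.34 ± 0.499) and CES5AP1 (7.398 ± 0.64) then stood above NEAT1 (6.19 ± 0.21), below which both had been in parental cells. This crossing depends on the length used for NEAT1. PCAT14 followed at 2.74 ± 0.29, PCAT6 at 1.03 ± 0.17, PCA3 at 0.35 ± 0.034 and PCAT1 at 0.082 ± 0.015 FPKM (SD, n = 3 each), and only PCAT1 and PCGEM1 overlapped. The lowest LINC01659 library, at 8.02 FPKM, barely cleared the highest CES5AP1 library, at 7.98 FPKM.

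**Figure D4:**
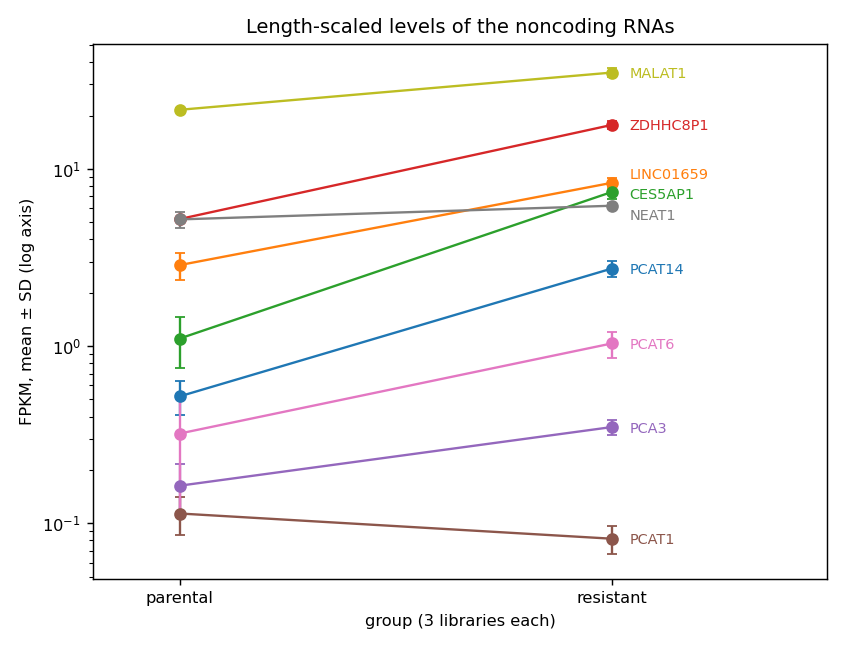
FPKM (vertical axis, log scale; mean ± SD of 3 libraries) of 9 noncoding RNAs in parental and resistant cells (horizontal axis), each joined by a line, without PCGEM1. LINC01659 and CES5AP1 lie below NEAT1 in parental cells and above it in resistant cells, with NEAT1 divided by its whole annotated length.

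The spread between libraries was compared with what counting alone gives. For PCAT14, the coefficient of variation of CPM was 21.9% in parental and 10.7% in resistant cells, where counting error at these depths is 15.7% and 6.84%. MALAT1 varied by 2.55% and 5.75%, against 1.81% and 1.43% from counting. NEAT1 varied by 10.8% in parental libraries, well above the 2.30% of counting, and by 3.40% in resistant libraries. For ZDHHC8P1, the variation in parental cells, 1.42%, was less than the 6.06% of counting.

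The genes with the expression pattern nearest to that of PCAT14 were sought by the root mean square difference of centered log2 CPM over the 6 libraries. They were PTPRZ1 (0.147), which encodes a receptor tyrosine phosphatase, RORB (0.181), an orphan nuclear receptor gene, and the protocadherin gene PCDHB10 (0.181), on chromosomes 7, 9 and 5. Their log2 fold changes were 2.33, 2.37 and 2.22, against 2.41 for PCAT14. A match over these libraries largely reflects a like fold change, the value on which PCAT14 was chosen, so it is a description. The nearest to PCAT1, whose groups overlapped, were AP002884.1 (0.0977), TINCR (0.103) and GPR143 (0.109), with the same limit.

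Other RNAs known from prostate cancer were taken from a list. Of 40 further lncRNAs listed for this tissue, 34 were in the table, 17 had enough counts to be tested, 1 was called higher (2.53% of all genes) and 0 lower (2.84%) by edgeR, as by limma and DESeq2, and 5 were higher and 0 lower at an unadjusted p under 0.05. PART1, an androgen-responsive prostate transcript, rose from 1.26 to 4.33 CPM, with a log2 fold change of 1.75 (SE 0.25, edgeR FDR 3.77e-07). At an FDR under 0.05 without a limit on size, 5 were higher and 0 lower, where 17.1% and 18.4% of all genes were. At an unadjusted p under 0.05, at least those shares of all genes were. Beside PART1 these were SCHLAP1 (log2 fold change 0.69), an antagonist of the SWI/SNF complex, CBR3-AS1 (0.63), PVT1 (0.58), which adjoins MYC, and LINC00963 (0.16), named after their values were seen. The median log2 fold change of the 17 was 0.17. LINC00963, at 127 and 141 CPM, and PCAT7, at 11.21 and 12.8 CPM (FDR 0.192), were the most abundant of them.

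Among 29 lncRNAs known from many tissues, 26 were tested, of which 1 was called higher and 0 lower by edgeR, limma and DESeq2, where edgeR called 2.53% and 2.84% of all genes. At an unadjusted p under 0.05, 12 were higher and 3 lower. At an FDR under 0.05 alone 10 were higher and 1 lower, against 17.1% and 18.4% of all genes. An unadjusted p under 0.05 was reached by at least those shares of all genes. LINC-PINT, a p53-induced RNA, was the one called, from 0.84 to 1.92 CPM (log2 fold change 1.17, edgeR FDR 0.00633). That call belongs to its entry ENSG00000231721. Another entry of the same name, ENSG00000226380, had too few counts to be tested, at 0.16 CPM in parental and 0.17 CPM in resistant cells. The most abundant were NORAD, which binds PUMILIO proteins, with a log2 fold change of −0.061 (FDR 0.0806), and OIP5-AS1, with 0.063 (FDR 0.0844). The median of the list was 0.13.

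Genes of endogenous retroviruses, the sequence class to which PCAT14 belongs in part, were not called in either direction by edgeR, limma or DESeq2, where edgeR called 5.37% of all genes. Of 18 listed, 9 were tested and 4 had an unadjusted p under 0.05. At an FDR under 0.05 in edgeR's test there were 1 higher (ERVH48-1, 0.91, FDR 0.0345) and 1 lower (ERVMER34-1, −0.39, FDR 0.000885). That FDR was reached by 35.5% of all genes in either direction, and an unadjusted p under 0.05 by at least as many. The HERV-K genes ERVK13-1 and ERVK3-1, which had the highest mean CPM of the list over the 6 libraries together, had log2 fold changes of −0.013 (FDR 0.929) and 0.15 (FDR 0.215). Another HERV-K gene, ERVK9-11, had 0.71 (FDR 0.0741).

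Genes for protein partners of the nuclear RNAs gave 0 calls by edgeR, limma or DESeq2, where edgeR called 5.37% of all genes. At an FDR under 0.05 alone, the share of all genes was 17.1% higher and 18.4% lower. An unadjusted p under 0.05 was reached by at least 35.5% of all genes, those past that FDR. Counts at an unadjusted p are a description. Of 19 paraspeckle protein genes, all tested, 14 had an unadjusted p under 0.05, with 3 higher and 7 lower at an FDR under 0.05 and a median log2 fold change of −0.064. SFPQ, an essential paraspeckle protein, had −0.12 (edgeR FDR 0.00021), its partner NONO 0.0018 (FDR 0.967), and the abundant HNRNPA1 and HNRNPK 0.051 (FDR 0.0695) and 0.0038 (FDR 0.926). Of 20 genes for nuclear speckle proteins and splicing factors, 9 had an unadjusted p under 0.05, 1 was higher and 6 lower at that FDR, and the median was −0.045. The speckle scaffolds SRRM2 and SON had −0.086 (FDR 0.00692) and −0.027 (FDR 0.475). Of 12 genes for the RNase P subunits, ELAC2 and METTL16, which process or bind MALAT1, 4 had an unadjusted p under 0.05, 1 was higher (POP1, 0.27) and 1 lower (RPP25, −0.31) at that FDR, and the median was 0.042. ELAC2, which cleaves the tRNA-like fragment of MALAT1, had 0.084 (FDR 0.1025), and POP7, an RNase P subunit, −0.092 (FDR 0.205). SFPQ, NONO, POP1 and RPP25 were named after their values were seen.

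**Figure D5:**
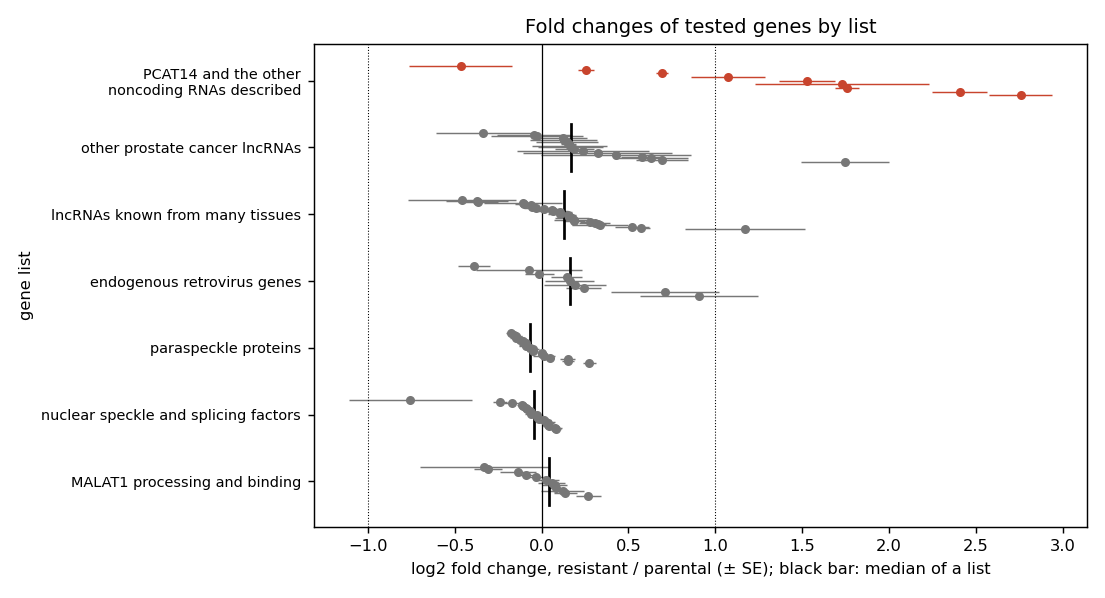
Log2 fold change of resistant over parental cells (horizontal axis, ± SE) for each tested gene of 6 gene lists (gray) and of the 9 tested noncoding RNAs described (red), with dotted lines at −1 and 1 and a black bar at the median of each of the 6 lists. PART1 and LINC-PINT lie above 1, and the genes of the other 4 lists lie between −1 and 1.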

How the data were processed

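RNA-Seq of 3 parental and 3 resistant 22Rv1 libraries was analyzed. The authors cleaned reads with fastp, mapped them to hg38 with HISAT2 2.0.5, counted them per gene with featureCounts 1.5.0-p3 and deposited raw counts without normalization. The deposited table also lists the length of each gene in bases, used here for FPKM. Annotation release, strand setting and filters are not given in the sources used here. The labels name mouse as the organism, but the gene identifiers are human. No human sequence was used here, so none is shown.

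Genes were filtered with filterByExpr, which kept 17142, scaled with TMM and tested in R 4.3.3 by the quasi-likelihood method of edgeR 4.0.16, with Benjamini-Hochberg adjustment over all tested genes. Each SE is the absolute log2 fold change over √F. CPM and FPKM use TMM-scaled library sizes. The scripts were tested on simulated data. Counting floors cover counting error only. Columns of per-sample values not used numbered 0.

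The 10 RNAs and the gene lists were chosen with earlier results of these data known. Named genes are these RNAs, their nearest tested and overlapping genes, called neighbors, the called and the 2 most abundant genes of each list, and the 3 genes nearest in pattern. Untested overlapping genes are not named. Some genes that this rule names are not reported here. Alternatives were limma-voom (limma 3.58.1), DESeq2 (1.42.0), no TMM, other filters, a larger prior count, a replicate block and leaving out each library.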

Additional observations from a re-analysis of the deposited data

How the results depend on the processing

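Of 183 values recomputed under the alternatives, 179 stayed within the allowed margin, 4 moved beyond it and 0 reversed. For a log2 fold change, the margin was the SD between libraries within a group. For a count of calls it was a set ratio to the main count, and a count cannot reverse. Counts of 337 higher and 358 lower calls with a prior count of 5 were within that ratio. Over all genes there were 434 higher and 487 lower calls, and 248 and 287 when at least 10 counts were required in every library, where fewer genes are tested. The other 2 concern PCAT6, whose log2 fold change of 1.73 became 1.07 with a prior count of 5 and 2.34 without parental replicate 3. PCAT14, at 2.41, ranged from 2.28 to 2.42 under the other settings and from 2.23 to 2.51 with each library left out. The number of described RNAs called higher, 6, was 5 with a prior count of 5, without parental replicate 3 and without resistant replicate 2, where PCA3 fell below a log2 fold change of 1, and 5 with at least 10 counts in every library, where PCAT6 was not tested. The 3 neighbors past the thresholds within 500 kb of PCAT14, LINC01658 included, were 2 under that filter, which removed LINC01658, 3 within 250 kb and 4 within 1 Mb. A replicate block gave 418 higher and 471 lower calls and a PCAT14 log2 fold change of 2.401. Same-numbered libraries did not deviate together over all tested genes (Pearson's r of −0.0069, −0.020 and −0.018). A batch that touched only some genes would not show in this correlation and was not tested. Depth limits PCGEM1 and PCAT6 most.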
